A study of Mus musculus with 2 samples.

Results

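Olfactory receptor genes code for the odorant receptors of the nose and form some of the longest gene clusters of the mouse genome. The regions described here are 3 such clusters, taken by their mm9 coordinates and not by any measured value: chr2:85000000-90000000, chr7:109700000-110900000 and chr9:37600000-39900000. They span 8.5 Mb and hold 8500 of the 2641863 windows of 1 kb in the 2 deposited libraries, or 850 windows of 10 kb. Each was compared with the 5 Mb on either side, 6 flanks with 30000 windows of 1 kb.

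Both libraries came from primary embryonic fibroblasts of wild-type mouse embryos at E13.5, of a mixed C57BL/6 and 129 background. One is a chromatin immunoprecipitation (ChIP) with a rabbit polyclonal antibody against Brg1, and the other is input chromatin with no antibody. Before a brief sonication, nuclei were treated with micrococcal nuclease, an enzyme that digests DNA between nucleosomes. The ChIP library held 13581267 tags and the input 5778620, a tag being 1 sequenced fragment end placed on the genome. The number of embryos behind each library is not given in the labels, and the identity of the cells was not checked, since the series holds no expression values. With 1 library per group there is no replicate check: each interval below is a 95% interval for counting error only, and each test compares the tags of these 2 libraries, not conditions.

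Each olfactory neuron transcribes a single receptor gene, and in most other tissues the receptor genes are known as silent. Brg1 is an ATPase of Swi/Snf, a remodelling complex that slides or evicts nucleosomes and is found mostly at active promoters and enhancers. Silence of the receptor genes in these fibroblasts is background and was not measured here.

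In the RefSeq order of genes on GRCm38.p6, the longest run of receptor genes on chromosome 2 lies between Lrrc55 and Ptprj and holds 293 entries, 222 of them protein-coding and 67 pseudogenes. The longest run on chromosome 9 has 127 entries between Panx3 and Zfp202. On chromosome 7 it has 158 entries between Rrm1 and Fam160a2, and the 5 beta-globin genes (Hbb) sit inside it, with 93 receptor entries before them and 65 after. Other protein-coding genes are few in the runs of chromosome 2 (3: Fads2b, Pramel6 and Pramel7) and chromosome 9 (3: Vwa5a, AW551984 and Tmem225), and number 27 on chromosome 7, among them many of the Trim family. The tags are on mm9 and this table is not, so single genes were not placed on the tags, and how far the runs and the 3 regions coincide was not measured.

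Annotated promoters of receptor genes differ in composition from those of other genes, and examples are printed to show the sequence before annotated starts. A promoter here is the sequence before the annotated start of a gene. Whether transcription begins at that start was not tested, so some of these sequences may not be promoters. RefSeq holds promoters for 944 receptor genes. Their 250 bases before the start had a median of 34.0% G or C, against 52.0% over 27025 promoters of all genes, receptor genes included, and a median of 1 CG dinucleotide against 6. No CG at all was present in 44.4% of receptor promoters and in 8.26% of all promoters. The letters TATAAA, the core of a TATA box, occurred on either strand in 39.3% of receptor promoters and 13.0% of all. TAATTA, a core that homeodomain proteins bind, occurred in 18.1% and 4.90%, and CCCNNGGG, the core of the Olf/Ebf motif, in 2.75% and 11.7%. These shares are not corrected for base composition. By run, the median G or C share was 30.8% for 186 promoters on chromosome 2, 36.4% for 109 on chromosome 7 and 34.4% for 79 on chromosome 9. The promoter nearest to each of these medians is printed below, 250 bases upstream of the start, 5′ to 3′, with CG in capitals, from RefSeq on GRCm38.p6. Olfr1015 and Olfr895 lie on the plus strand of chromosomes 2 and 9, and Olfr559 lies on the minus strand of chromosome 7. For comparison, the last line is the promoter of Rrm1 (plus strand, chromosome 7), which codes for the large subunit of ribonucleotide reductase and borders the chromosome 7 run.
Olfr1015: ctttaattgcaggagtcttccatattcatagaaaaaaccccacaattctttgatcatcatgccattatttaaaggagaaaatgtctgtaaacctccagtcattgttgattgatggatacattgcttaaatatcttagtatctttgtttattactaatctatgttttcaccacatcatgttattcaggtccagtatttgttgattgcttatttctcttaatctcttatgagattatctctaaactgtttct
Olfr559: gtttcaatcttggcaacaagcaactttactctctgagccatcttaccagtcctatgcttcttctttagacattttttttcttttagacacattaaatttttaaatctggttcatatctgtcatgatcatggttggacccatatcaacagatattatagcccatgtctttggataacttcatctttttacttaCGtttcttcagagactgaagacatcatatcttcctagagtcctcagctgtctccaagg
Olfr895: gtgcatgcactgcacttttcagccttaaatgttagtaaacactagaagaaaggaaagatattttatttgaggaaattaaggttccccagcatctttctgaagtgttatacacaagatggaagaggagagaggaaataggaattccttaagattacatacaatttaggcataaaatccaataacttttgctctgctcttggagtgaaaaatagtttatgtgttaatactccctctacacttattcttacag
Rrm1: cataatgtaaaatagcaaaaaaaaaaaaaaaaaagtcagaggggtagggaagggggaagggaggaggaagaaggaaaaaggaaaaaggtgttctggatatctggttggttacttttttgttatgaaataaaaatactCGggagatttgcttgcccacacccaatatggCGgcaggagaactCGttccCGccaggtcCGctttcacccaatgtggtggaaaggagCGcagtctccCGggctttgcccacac
The Olfr1015 and Olfr895 promoters have no CG and Olfr559 has 1, while Rrm1 has 7 in the same length. In that order, the G or C shares of the 4 promoters are 30.8%, 34.4%, 36.4% and 46.0%.

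To ask whether the clusters carry less Brg1 than the rest of the genome, tags were summed over each. The chromosome 2 cluster held 12852 ChIP and 7595 input tags, or 2.57 and 1.52 per kb. On chromosome 7 the cluster held 3074 and 1809, or 2.56 and 1.51 per kb. On chromosome 9 it held 6546 and 3769, or 2.85 and 1.64 per kb. Per kb the autosomes held 5.35 ChIP and 2.27 input tags. All 3 clusters were therefore poor in tags of both libraries, and more so in the ChIP.

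Relative to the autosomal mean, ChIP density was 0.481 (0.473 to 0.489) on chromosome 2, 0.479 (0.462 to 0.496) on chromosome 7 and 0.532 (0.520 to 0.546) on chromosome 9. Input density was 0.670 (0.655 to 0.685), 0.665 (0.634 to 0.696) and 0.722 (0.700 to 0.746) in the same order. With libraries scaled to equal autosomal sums (1 input tag for every 2.36 of the ChIP), the ChIP/input ratio was 0.718 (0.698 to 0.739) in the chromosome 2 cluster, 0.721 (0.680 to 0.765) in the chromosome 7 cluster and 0.737 (0.708 to 0.767) in the chromosome 9 cluster. Over the 3 clusters together 22472 ChIP tags against 13173 input tags gave 0.724 (0.709 to 0.740).

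The clusters differed little from each other. In the 3 pairwise comparisons the ratio of chromosome 2 to chromosome 7 was 0.996 (0.933 to 1.06), that of chromosome 2 to chromosome 9 was 0.974 (0.927 to 1.02) and that of chromosome 7 to chromosome 9 was 0.978 (0.911 to 1.05). Each interval includes 1 and bounds the difference between clusters, the widest bound being 0.911.

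The chromosomal surroundings were higher. The 6 flanks together held 181270 tags of the ChIP and 74484 of the input, which gave 1.03 (1.02 to 1.04). Against both of its flanks, the chromosome 2 cluster stood at 0.704 (0.682 to 0.727), the chromosome 7 cluster at 0.697 (0.657 to 0.741) and the chromosome 9 cluster at 0.707 (0.677 to 0.737), as odds ratios of tags with exact intervals. Scaling of the libraries does not enter these values. The flanks themselves differed. On chromosome 2 they were at 0.989 (0.966 to 1.01) on the left and 1.04 (1.02 to 1.06) on the right, and on chromosome 9 at 0.966 (0.945 to 0.987) and 1.10 (1.08 to 1.12). On chromosome 7 the left flank was at 1.14 (1.12 to 1.16) and the right flank at 0.835 (0.813 to 0.857). Against that right flank alone the chromosome 7 cluster stood at 0.864 (0.810 to 0.922), and against the left alone at 0.633 (0.596 to 0.673). By segments of 100 kb the cluster and its right flank were alike, with a median ratio of 0.731 and 0.739. Of the 48 tested segments of that flank 40 were below 1, and the highest was at 1.54.

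**Figure D1:**
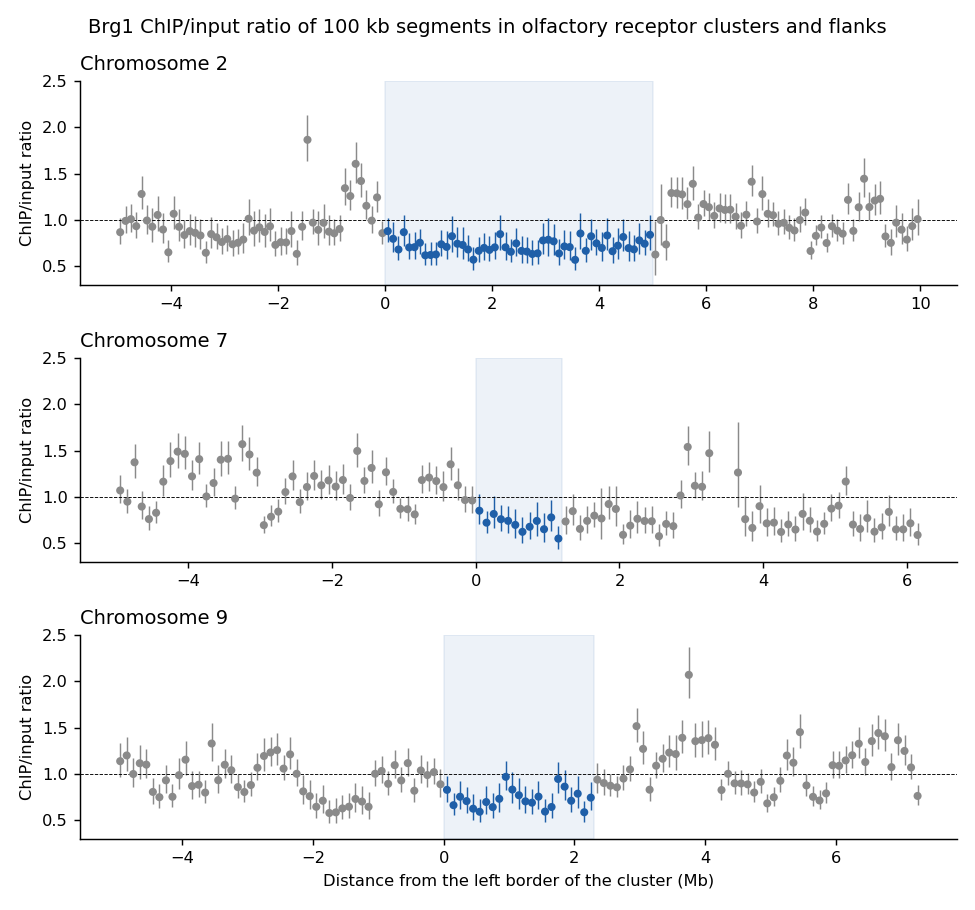
ChIP/input ratio (vertical axis) of 100 kb segments against distance from the left border of each cluster in Mb (horizontal axis), for clusters (blue, shaded) and flanks (grey). Bars are exact 95% intervals, segments with under 20 input tags are not drawn, and the dashed line is a ratio of 1. All 85 cluster segments lie below the line. Low segments also lie in flanks, to the right of the chromosome 7 cluster and in part of the left flank of chromosome 9.

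At the scale of 100 kb the low ratio extended along each cluster. All 85 cluster segments were below 1, against 166 of 298 flank segments with enough tags to test and 62.0% of the 23590 autosomal segments with at least 50 input tags. The median segment was at 0.707 in the clusters, 0.954 in the flanks and 0.923 on the autosomes. On chromosome 2 the 50 segments ran from 0.568 (0.457 to 0.706), with 202 ChIP and 151 input tags at chr2:88500000-88599999, to 0.878 (0.756 to 1.02), with 542 and 262 in the first segment of the cluster at chr2:85000000-85099999. On chromosome 7 the lowest of 12 segments was the last one, chr7:110800000-110899999, with 184 against 142 tags and a ratio of 0.550 (0.439 to 0.689). The highest was the first, chr7:109700000-109799999, with 335 against 167 and 0.851 (0.705 to 1.03). Among the 23 segments of chromosome 9 the lowest was chr9:39700000-39799999, with 260 against 188 tags and 0.587 (0.485 to 0.712). Stretches as low also lay outside the clusters. In the left flank of chromosome 9, every segment of chr9:35400000-36499999 was between 0.579 and 0.813, with 134 to 166 input tags.

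The chromosome 9 cluster had 2 segments close to the level of the autosomes. These were chr9:38500000-38599999, with 489 ChIP and 214 input tags (0.970, 0.824 to 1.14), and chr9:39300000-39399999, with 406 and 182 (0.947, 0.793 to 1.13). Neither was on the cluster border. No segment on chromosomes 2 or 7 exceeded 0.878.

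Of the 85 cluster segments 65 had fewer ChIP tags than the input predicted, at an adjusted p under 0.05 (exact binomial test, two-sided, Benjamini-Hochberg over 25494 segments of the genome), and 0 had more. Genome-wide the same rule called 29.9% of segments lower and 16.8% higher, so 76.5% of cluster segments stand beside 29.9%. By cluster the lower calls were 38 of 50, 10 of 12 and 17 of 23. In the 6 flanks 81 of 298 tested segments were lower (27.2%). The right flank of chromosome 7 held 30 of these, among 48 tested (62.5%). With a ratio of at most the inverse of 1.5 required as well, 24 of 85 were lower, beside 5.49% of all segments.

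**Figure D2:**
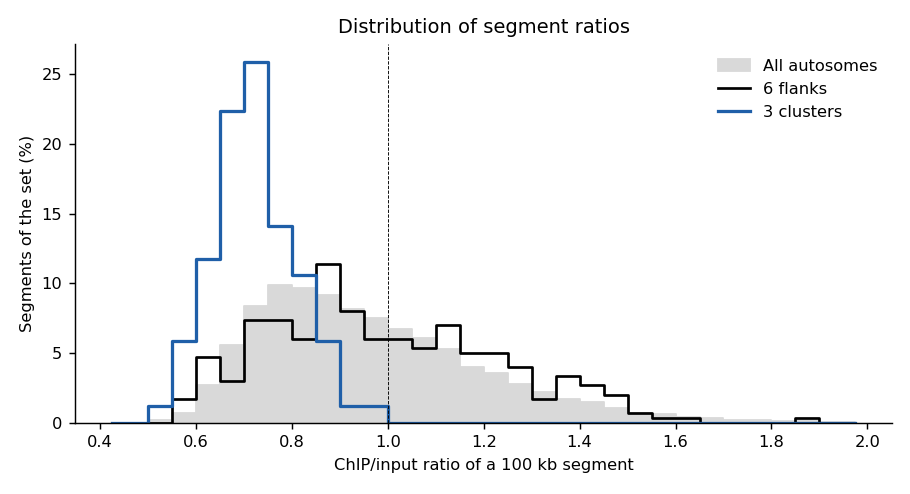
Share of segments in percent (vertical axis) by ChIP/input ratio of 100 kb segments in steps of 0.05 (horizontal axis), for the 3 clusters (blue line), the 6 flanks (black line) and all autosomes (grey area); ratios above 2 are not drawn. The clusters form a single narrow group with a median of 0.707, inside the lower part of the broad autosomal distribution.

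Segments within the clusters varied less than those of the flanks. The SD of the log2 ratio among cluster segments was 0.17, and counting alone gives 0.15. Among flank segments the SD was 0.35, with 0.13 from counting. In windows of 10 kb the values were 0.52 and 0.49 for the clusters, and 0.58 and 0.39 for the flanks. By cluster at 10 kb, the SD was 0.50 with 0.49 from counting on chromosome 2, 0.50 with 0.50 on chromosome 7 and 0.57 with 0.49 on chromosome 9. The chromosome 9 cluster, which holds both segments near 1, was the one with the most spread beyond counting at this size.

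Low density of tags and a low ratio went together across the genome. Autosomal segments outside the clusters with 150 to 199 input tags had a median ratio of 0.795 (10th to 90th percentile 0.665 to 1.00, 5720 segments), and those with 300 to 349 had 1.13 (0.870 to 1.48, 3483 segments). Most cluster segments fell at the sparse end: 40 had 100 to 149 input tags and 40 had 150 to 199. Their medians were 0.717 and 0.702, against 0.773 and 0.795 for the other segments of the same input range, and so lay inside the 10th to 90th percentile of both. Judged within its own step of 50 input tags, 22 of the 85 cluster segments (25.9%) lay below the 10th percentile of the others and 19 at or above their median. These gaps were smaller than those between the clusters and their flanks. The part of base composition, of repeated sequence to which tags cannot be assigned, and of nuclease cutting in this relation was not tested.

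**Figure D3:**
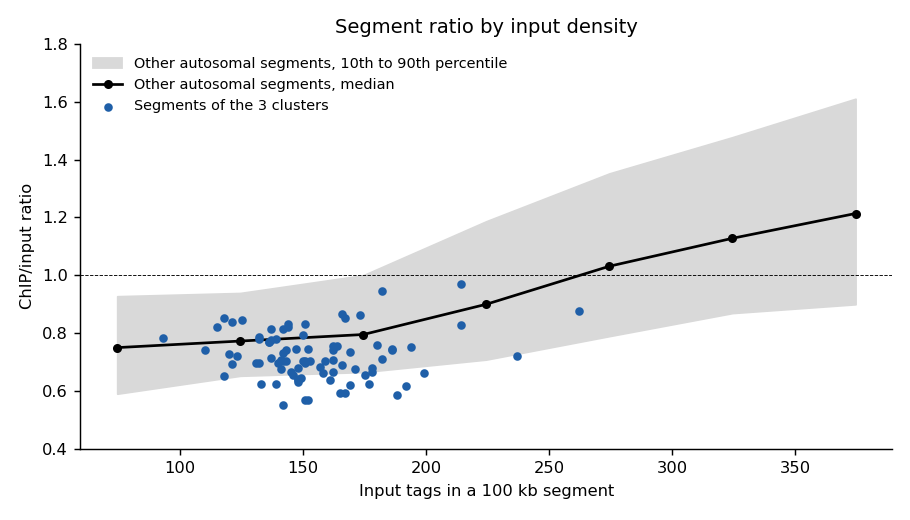
ChIP/input ratio (vertical axis) against input tags per 100 kb segment (horizontal axis). Blue points are the 85 cluster segments, the black line is the median of other autosomal segments in steps of 50 input tags (the last point pools 350 or more), and the grey band is their 10th to 90th percentile; 44 cluster points lie between the lower edge of the band and the median, 22 below the band's lower edge and 19 at or above the median, each judged within its step.

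Stretches as long as the clusters and as low were uncommon. Autosomal blocks outside the clusters were counted if their input averaged at least 50 tags per 100 kb, so the sparsest blocks are left out of all counts here. Among 481 such blocks of 5 Mb, 1 had a lower ratio than the chromosome 2 cluster, while 30 had fewer input tags per kb. For blocks of 1.2 Mb, 43 of 1973 were lower than the chromosome 7 cluster and 62 had less input. For blocks of 2.3 Mb, 17 of 1028 were lower than the chromosome 9 cluster and 63 had less input. The lowest blocks of these sizes were at 0.703, 0.605 and 0.642. These ranks describe the 2 libraries and are no test.

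The change at the borders was seen in both libraries. On the left of chromosome 2, the last 200 kb outside held 1457 ChIP and 585 input tags, or 1.06 as a ratio (0.960 to 1.17), and the first 200 kb inside held 823 and 412, a ratio of 0.848 (0.752 to 0.957). On the left of chromosome 7 the step was from 0.964 (0.868 to 1.07) to 0.775 (0.686 to 0.877), and on the left of chromosome 9 from 0.967 (0.869 to 1.08) to 0.749 (0.663 to 0.847). Over the whole adjoining 1 Mb on the left, the ratio was 1.17 (1.12 to 1.23), 1.08 (1.03 to 1.13) and 0.989 (0.945 to 1.04) on chromosomes 2, 7 and 9.

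On the right the borders differed by chromosome. The last 200 kb of the chromosome 2 cluster were at 0.780 (0.677 to 0.899). Beyond it 3 more segments stayed below 1, with few tags (187 ChIP and 93 input tags in the first 200 kb, ratio 0.853, 0.662 to 1.11), and the adjoining 1 Mb as a whole reached 1.19 (1.14 to 1.25). Beyond the chromosome 9 cluster the ratio went from 0.656 (0.571 to 0.755) in the last 200 kb inside to 0.919 (0.821 to 1.03) in the first 200 kb outside. On chromosome 7 the low ratio went on further. The last 200 kb of the cluster were at 0.663 (0.569 to 0.773), the next 200 kb at 0.791 (0.689 to 0.910), the adjoining 1 Mb at 0.755 (0.709 to 0.805), and 16 segments in a row, 1.6 Mb, stayed below 1. In the RefSeq order, receptor genes of this run continue beyond the globin genes, so the right flank may hold receptor genes of its own; with coordinates of another build this was not measured.

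**Figure D4:**
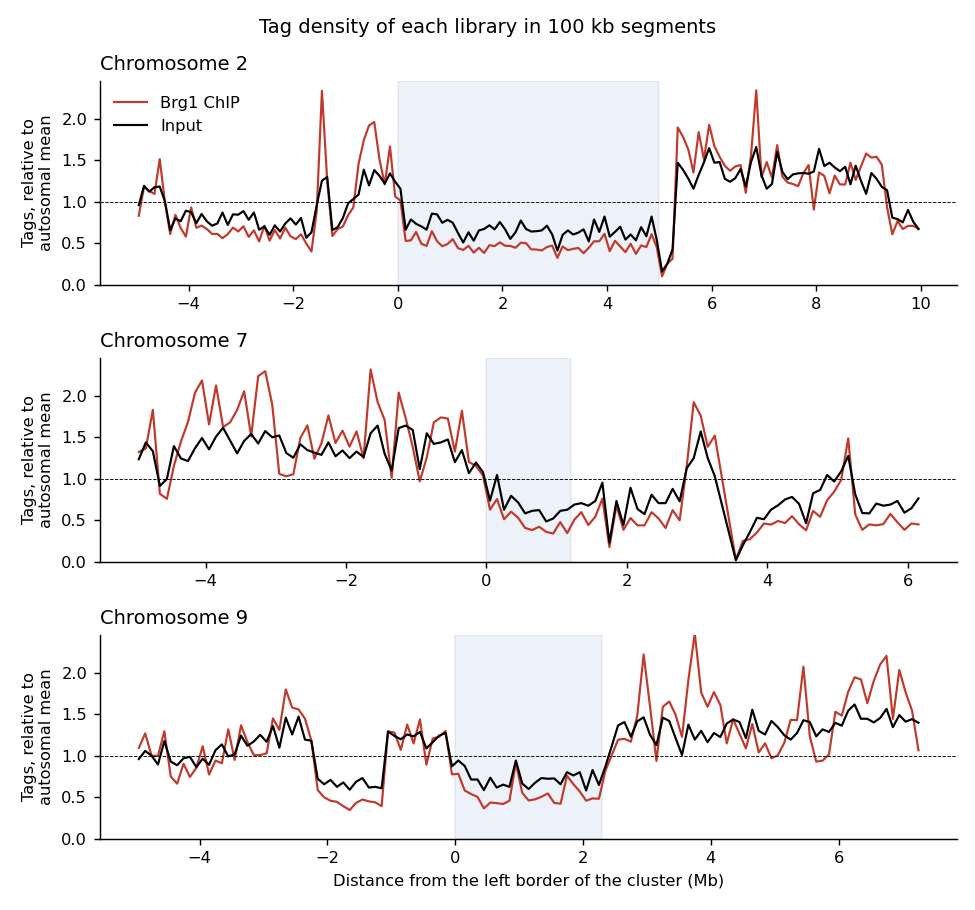
Tags per 100 kb segment relative to the autosomal mean (vertical axis) for the Brg1 ChIP (red) and the input (black) against distance from the left border of each cluster in Mb (horizontal axis), with the clusters shaded. Inside the shaded stretches the ChIP line lies under the input line, at 0.479 to 0.532 against 0.665 to 0.722 over whole clusters; both lines are below the mean except in the first segment of chromosome 2 (both libraries) and the next-to-first of chromosome 7 (input).

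The share of windows without any tag in the clusters was near that of the autosomes, and it varied widely among the flanks. Neither library had a tag in 6.82% of the 1 kb windows of the chromosome 2 cluster, 7.50% on chromosome 7 and 6.43% on chromosome 9, against 5.02% in the flanks together and 7.57% on the autosomes. The autosomal share counts every window from the start of each chromosome. In the left and right flank it was 6.40% and 3.88% on chromosome 2 and 4.06% and 0.86% on chromosome 9. These clusters were thus above both of their flanks. On chromosome 7 the flanks were at 0.42% and 14.5%, and the cluster lay between them. The longest empty stretch was 39 kb on chromosome 2, 6 kb on chromosome 7 and 7 kb on chromosome 9. Over cluster windows with a tag, ChIP density was 0.516, 0.518 and 0.569 times the autosomal mean, in the order of chromosomes 2, 7 and 9. Input density was 0.719, 0.719 and 0.772 times its own autosomal mean. Both means count the empty autosomal windows, so these values are not like for like.

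At the scale of 1 kb no focal Brg1 site passed the test inside the clusters. Of their 8500 windows 296 had the 10 tags needed (3.48%, against 35.1% in the flanks), and 0 were called higher and 0 lower by the exact binomial test after adjustment over the genome. The genome-wide shares were 0.38% higher and 0.00666% lower, and in the flanks 41 of 10523 were higher. At an unadjusted p under 0.05, 5 cluster windows were higher (1.69%, against 5.98% over the genome) and 6 lower (2.03%, against 1.70%). At 0.38%, 296 windows would hold about 1 adjusted call, so the count of 0 says little at this depth.

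The window nearest to a call was chr9:38526000-38526999, with 29 ChIP tags against 1 input tag, a ratio of 12.3 (2.04 to 503, exact binomial test, adjusted p = 0.0908). It lies in the segment of chromosome 9 that stood at 0.970, and it was called when only windows with at least 20 tags were tested (exact test, adjusted p = 0.0109), a setting that called 19.4% of all tested windows higher, or with background scaling (exact test, adjusted p = 0.0367). On chromosome 7 the highest was chr7:109835000-109835999, with 21 tags against 1 (8.91, 1.43 to 369, adjusted p = 0.313 in the exact test), called only with the minimum of 20 tags (adjusted p = 0.0460). Another window of chromosome 9, chr9:37616000-37616999, held 18 against 1 (7.64, 1.21 to 318, adjusted p = 0.449 in the exact test). On chromosome 2 the highest lower bound was in chr2:89130000-89130999, where 10 ChIP tags stood against 0 (exact lower bound 0.951, exact test, adjusted p = 0.649). No 1 kb window of the 3 clusters held more than 29 ChIP tags, while the flanks reached 56.

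Most windows of 10 kb could be tested, each against a ratio of 1 and not against the level of its cluster. A window called lower therefore need not be lower than the rest of its cluster. The SD of the log2 ratio was 0.50, 0.50 and 0.57 on chromosomes 2, 7 and 9, with 0.49, 0.50 and 0.49 from counting. Of 850 windows 841 were tested, with a median of 25 ChIP and 15 input tags. The test called 21 lower (2.50%) and 1 higher (0.119%), against 1.11% lower and 3.98% higher over the genome and 30 lower and 143 higher among 2927 flank windows. These shares are not matched for depth, and shares by depth are given below. By cluster there were 13 lower of 495 on chromosome 2, 2 of 116 on chromosome 7 and 6 of 230 on chromosome 9. The median ratio of tested windows was 0.718 in the clusters, 0.930 in the flanks and 0.898 in the genome, and 82.0%, 57.5% and 61.2% were below 1.

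The lowest windows were scattered and none adjoined another. On chromosome 9, chr9:39570000-39579999 held 18 ChIP and 29 input tags, or 0.263 after scaling (0.138 to 0.491, exact binomial test, adjusted p = 0.000801), and chr9:38050000-38059999 held 3 and 10 (0.127, 0.0225 to 0.494, adjusted p = 0.0300). On chromosome 2, chr2:88500000-88509999 held 6 and 14 (0.182, 0.0573 to 0.504, adjusted p = 0.0152 in the exact test), and chr2:87360000-87369999 held 18 and 27 (0.283, 0.147 to 0.533, adjusted p = 0.00263). On chromosome 7, chr7:110460000-110469999 held 13 and 21 (0.263, 0.121 to 0.550, exact test, adjusted p = 0.00843), and chr7:110140000-110149999 held 24 and 28 (0.364, 0.202 to 0.651, adjusted p = 0.0157). All 21 lower windows had between 10 and 33 input tags and between 3 and 33 ChIP tags.

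A single 10 kb window was enriched. At chr9:37610000-37619999, at the left end of the chromosome 9 cluster, 84 ChIP tags stood against 15 input tags, a ratio of 2.38 (1.36 to 4.43, exact binomial test, adjusted p = 0.0286). It contains the 1 kb window with 18 tags against 1. The next on that chromosome, chr9:39320000-39329999, held 61 against 12 (2.16, 1.15 to 4.40, exact test, adjusted p = 0.144), and it lies in the other segment near 1. On chromosome 2 the highest lower bound was in chr2:87950000-87959999, with 25 against 3 (3.54, 1.08 to 18.3, exact test, adjusted p = 0.239), and on chromosome 7 in chr7:110370000-110379999, with 30 against 7 (1.82, 0.783 to 4.91, adjusted p = 0.199). Only the chromosome 9 window at the border passed the test.

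**Figure D5:**
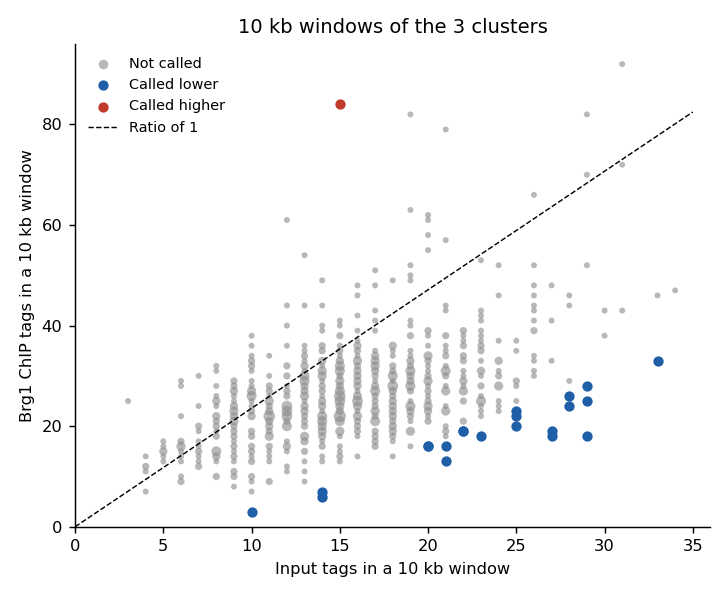
Brg1 ChIP tags (vertical axis) against input tags (horizontal axis) in the 841 tested 10 kb windows of the 3 clusters; larger grey points stand for more windows with the same counts, blue points are the 21 windows called lower, the red point is the 1 called higher, and the dashed line is a ratio of 1. The cloud as a whole lies under the line, with few windows above it at high counts.

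Windows of 10 kb were also set side by side by depth, the sum of tags of both libraries; this sum contains the ChIP tags, so windows low in ChIP fall into the sparser classes by construction. Among windows with 30 to 39 tags of both libraries together, the median ratio was 0.728 in 245 cluster windows, 0.672 in 168 flank windows and 0.751 in 17255 windows of the genome. With 40 to 49 tags it was 0.699 in 282, 0.731 in 263 and 0.764 in 26838. With 50 to 69 tags it was 0.714 in 164 and 0.802 in 517 flank windows. The share of dense windows differed: 961 of 2927 flank windows had 100 or more tags, 142 of them enriched, while 5 of 841 cluster windows did, none of them enriched. Over the genome 17.4% of windows with 100 or more tags were enriched, so 5 windows are too few to compare. Their median ratios were 1.26 in the 5 cluster windows and 1.29 in the 961 flank windows. With 70 to 99 tags, 1 of 26 cluster windows was called higher, against 0.299% over the genome. With 50 to 69 tags it was 0 of 164 against 0.0472%. Lower calls in the classes of 10 to 29, 30 to 39, 40 to 49 and 50 to 69 tags were 3 of 119, 4 of 245, 9 of 282 and 5 of 164. The genome shares were 0.702%, 1.08%, 1.62% and 1.82%.

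Positions with 2 tags were a small share throughout. Of the ChIP positions in the clusters 0.496% carried 2 tags, against 0.892% in the flanks and 0.825% on the autosomes; ChIP density was lower in the clusters by the values above, and its part in this share was not tested. By cluster the shares were 0.595% (76 of 12776), 0.392% (12 of 3062) and 0.353% (23 of 6522) on chromosomes 2, 7 and 9. Plus-strand tags made up 49.1% to 50.2% of ChIP tags in the clusters.

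The nucleosome pattern could not be resolved inside the clusters. Same-strand tag pairs 150 to 199 bp apart, near 1 nucleosome repeat, were compared with pairs 250 to 299 bp apart. In the ChIP the quotient was 0.994 (0.930 to 1.06) from 1759 and 1769 pairs in the clusters, against 1.02 (1.01 to 1.04) in the flanks and 1.03 (1.03 to 1.03) on the autosomes. The cluster interval includes both other values. In the input it was 0.902 (0.801 to 1.02) from 536 and 594 pairs, against 1.00 (0.966 to 1.04) and 1.03 (1.02 to 1.03). The input interval of the clusters includes the flank value and ends just below the autosomal one. One tag can enter several pairs, so these intervals are too narrow.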

How the data were processed

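Each deposited file lists a chromosome, strand, position and count of tags; the values are counts that the authors did not normalize as far as the files show, and the submitters' processing notes name Bowtie and mm9, with no version. The sources used here do not state a filter on repeated tags; the ChIP lists at most 2 tags per position, and the input lists 2 on chromosomes 9, X and Y only. Repeated reads without molecular identifiers are not independent molecules.

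Tags were moved 75 bp along their strand and counted in windows of 1, 10 and 100 kb. ChIP counts were scaled by autosomal totals. Ratios have exact conditional (Clopper-Pearson) 95% intervals, and cluster over flank is a conditional odds ratio. Windows with at least 10 tags in both libraries together entered an exact binomial test, two-sided with the smaller tail doubled, with Benjamini-Hochberg adjustment over the genome, and calls needed both an adjusted p under 0.05 and a ratio past 1.5 or its inverse; 100 kb segments were called at the adjusted p alone. The steps were tested on simulated data. Windows named were, per cluster, the 2 with the highest lower bound and the 2 with the lowest upper bound, the 5 calls over all clusters with the lowest upper bound, every higher call, and each cluster's highest and lowest 100 kb segment; others were chosen after their values were seen, and not every window of the rule is printed. Whether positions count from 0 or 1 is not stated in the files, so coordinates may be off by 1 bp. The regions, lists and tests were chosen with earlier results of these data known. No annotation of mm9 was used, so the planned values at single receptor genes were not made. Alternatives were other scalings, tag filters, minimums, flanks and ratios. Tools were Python 3.11.15, numpy 2.4.6, scipy 1.17.1, pandas 2.3.3 and matplotlib 3.10.9.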

Additional observations from a re-analysis of the deposited data

How the results depend on the processing

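Of 92 alternative values 76 stayed inside the interval of the reported value or within 1.5 times of the reported count, 16 moved and none changed direction. Background scaling, the median ratio of 10 kb windows, raised every ratio by 0.15 on the log2 scale: the clusters of chromosomes 2, 7 and 9 were then at 0.798, 0.802 and 0.819, 1 window of 1 kb was higher (0.899% in the genome), 11 windows of 10 kb were lower in place of 21 (0.517% in the genome in place of 1.11%), and 35 of the 100 kb segments were lower in place of 65 (12.4% in place of 29.9%). With a minimum of 20 tags, which leaves 12 windows of 1 kb to test, 2 were higher, beside 19.4% of those tested in the genome. With a ratio past 1.5 required, 24 segments of 100 kb were lower, beside 5.49% of those in the genome. Cluster over flank depended on the flank: on chromosome 2 it was 0.638 with 2 Mb, 0.736 without the nearest 1 Mb and 0.754 from medians of segments; on chromosome 7 it was 0.633 and 0.864 with the left or right flank alone and 0.793 from medians; on chromosome 9 it was 0.763 and 0.669 with the left or right alone. The 100 kb segments and their alternatives were added after the data were seen. The alternatives set for single receptor genes were not run. No paired analysis was possible because there is 1 ChIP and 1 input library. Depth limits the 1 kb windows most, since 3.48% of those in the clusters could be tested.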
